A study of Mus musculus with 21 samples.

Results

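Transcript levels of 10 genes of cellular iron uptake, storage, export and sensing were followed through 7 fractions of haematopoietic cells sorted from mouse bone marrow. The genes are Tfrc, Tfr2, Slc11a2, Steap3, Slc25a37, Fth1, Ftl1, Slc40a1, Aco1 and Ireb2. They were chosen by name, and each was matched to array probes through the RefSeq accession that the arrays give for a probe. All 10 had at least 1 probe, out of 18217 genes with a named probe, and the probe with the highest mean level over the arrays stands for a gene with several. All 10 passed the filter on dim probes, as did 14315 genes in all.

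The fractions came from C57BL/6 mice, carried no transgene or treatment that the labels name, and were each measured on 3 arrays of 1 colour, 21 arrays in all. KLS (lineage-negative, ckit+, sca1+) is the most immature fraction. PreMegE (CD150+, CD105-, negative for the Fc gamma receptors), CFUe (CD150-, CD105-, negative for those receptors) and Ter119 (CD71+, Ter119+) stand in order on the erythroid side. PreGM (CD150-, CD105-, negative for the receptors), GMP (CD150-, positive for the receptors) and Mac1Gr1 (Mac1+, Gr1+) stand in order on the myeloid side, and the comparisons ask how expression parts as cells mature along each. All 4 intermediate fractions are given as lineage-negative and ckit+. The lineage antigens were B220, CD3, CD4, CD8, CD41, Mac1, Gr1 and Ter119. The labels give CFUe and PreGM the same antigens, so these 2 fractions rest on the sample titles. They also give sca1+ for all 4 intermediate fractions, whereas the gene of Sca1, Ly6a, lay at a mean log2 level of 2.57 in KLS, -3.14 in PreMegE, -5.81 in CFUe (1 of 3 arrays well above background), -0.31 in PreGM and 2.10 in GMP. CD105 is given as negative for PreMegE, CFUe and PreGM, whereas its gene, Eng, lay at 2.15, 2.47 and 1.68 there, beside 2.07 in KLS. No source says whether the 3 arrays of a fraction came from separate animals. The p-values therefore measure the spread between these samples, which may be technical.

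Levels are log2 intensities on which 0 equals the 75th percentile of the array, so a difference of 1 is a 2-fold difference of the same probe. Levels of different probes are not comparable. A change was called at a limma adjusted p (Benjamini-Hochberg, over all 29532 probes tested) under 0.05 and at least 2-fold, and rose and fell are used for called changes only. Between 56.4% and 77.4% of the spots of an array were well above background. Arrays of a fraction correlated at 0.977 to 0.993 across probes. The sorted fractions showed transcripts typical of other cells, and in Ter119 the granulocytic signal overlapped that of Mac1Gr1. A list of 11 macrophage genes, summed per array, reached 4.81 to 6.29 in KLS, with all 11 well above background on every array, and -1.61 to -0.88 in CFUe, where 6 were above background on none (Vcam1, C1qa, C1qc, Adgre1, Mrc1 and Mertk). A list of 12 granulocytic genes reached 12.1 to 12.5 in Ter119, where all 12 were well above background, and 12.3 to 12.5 in Mac1Gr1, against 2.46 to 5.36 in CFUe. A list of 6 B cell genes was also highest in Ter119 (6.60 to 7.12, all 6 well above background). A list of 10 erythroid genes reached 10.4 to 10.8 in Ter119 against 6.54 to 6.68 in CFUe, with all 10 well above background in both. The brightest of them in Ter119 were Alas2 (9.92, against -2.90 in CFUe) and Slc4a1 (8.89 against -2.89). Klf1 (2.40 against 3.91), Epor (4.36 against 5.17), Gata1 (0.80 against 3.13) and Ermap (4.74 against 5.08) had lower means in Ter119, and the others higher. In PreGM, labelled with the same antigens as CFUe, the erythroid list reached 0.77 to 1.31. In such bulk samples, fewer cells with a transcript and less transcript per cell cannot be told apart.

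Iron reaches cells bound to transferrin, which the transferrin receptors take into endosomes. There a STEAP reductase turns ferric into ferrous iron, the transporter DMT1 moves it to the cytosol, and mitoferrin carries it into the mitochondrion for haem and iron-sulphur clusters. Ferritin stores the surplus, ferroportin exports it, and the iron regulatory proteins bind hairpins in the messages of several of these genes and adjust their stability or translation when iron is scarce. Developing red cells draw most of the iron of the body for haemoglobin, and macrophages return it by breaking down old red cells.

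The limma F-test found all 10 genes to differ among the 7 fractions, with adjusted p from 8.14e-16 (Slc25a37) to 6.18e-06 (Ireb2), as did 94.7% of all probes tested. The genes differed in the size of the variation. Between the highest and the lowest fraction, mean levels differed 274-fold for Slc40a1, 236-fold for Tfr2, 131-fold for Slc25a37, 38.1-fold for Tfrc and 31.6-fold for Slc11a2. The same span was at least 8.84-fold for Steap3, whose lowest fraction was not well above background, and 7.55-fold for Aco1, 3.79-fold for Fth1, 3.03-fold for Ftl1 and 1.85-fold for Ireb2. The median span of the 10 was 4.06 on the log2 scale with Steap3 at this bound and 4.19 with its measured value, beside 2.35 over all probes tested.

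**Figure D1:**
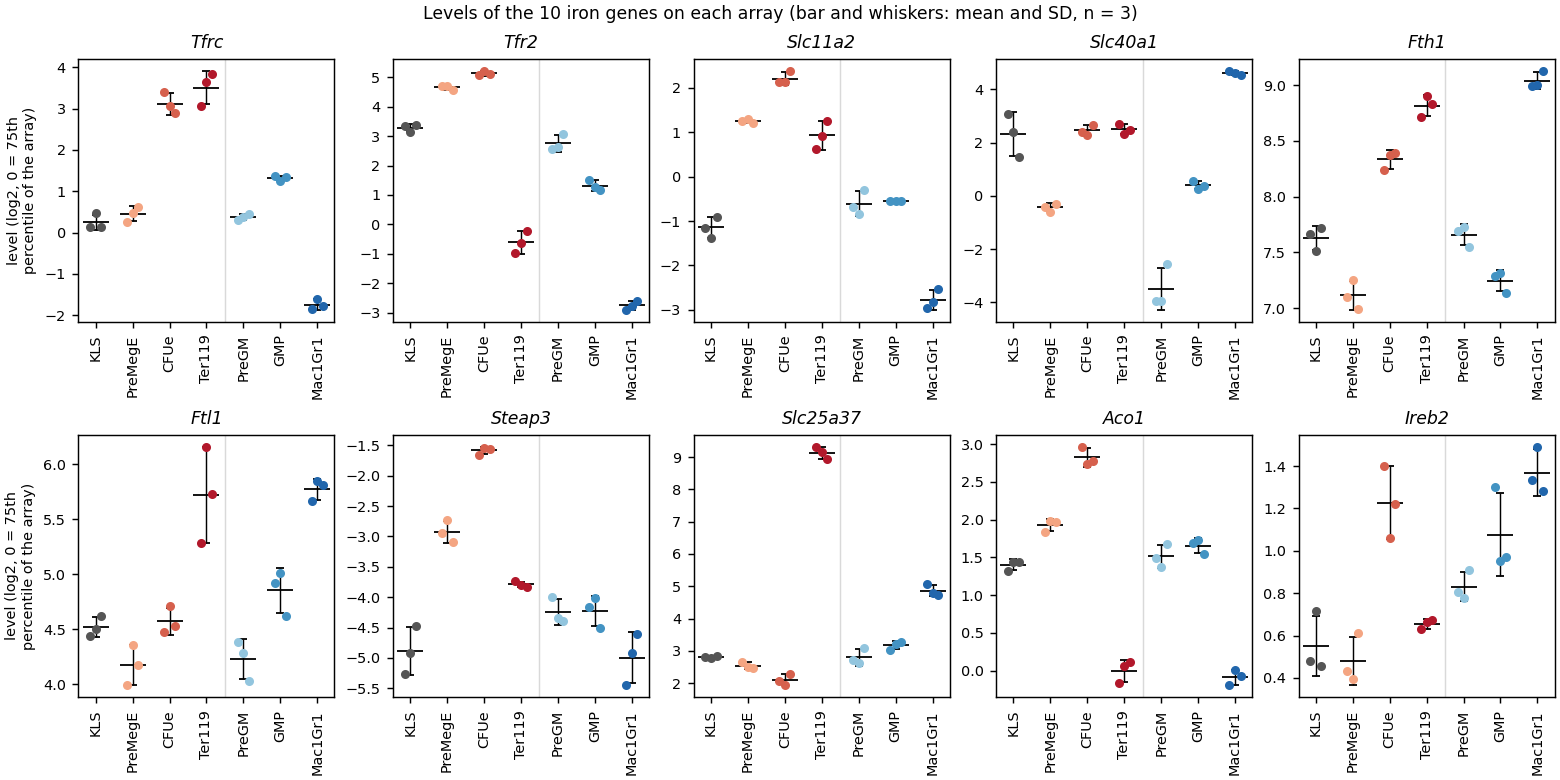
Log2 level of each of the 10 iron genes on the 21 arrays (points; vertical axis, 0 = 75th percentile of the array) in the 7 fractions (horizontal axis, erythroid side left of the grey line with KLS, myeloid side right of it), with the mean and SD of 3 arrays as bar and whiskers. Tfrc, Tfr2, Slc11a2, Steap3 and Aco1 are at or near their highest in CFUe, Slc25a37 stands at 9.13 in Ter119 alone, and Slc40a1 runs from -3.49 in PreGM to 4.61 in Mac1Gr1. Each panel has its own vertical scale.

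Tfrc encodes transferrin receptor 1, the main port of entry for transferrin iron and the antigen CD71. Its log2 level was 0.13, 0.47 and 0.14 on the 3 KLS arrays, 0.26, 0.47 and 0.63 in PreMegE, and 0.32, 0.37 and 0.46 in PreGM. It then reached 3.41, 3.06 and 2.89 in CFUe and 3.06, 3.63 and 3.83 in Ter119. The first 3 fractions overlapped, as did CFUe with Ter119, and no array of the first 3 came near CFUe. From PreMegE to CFUe Tfrc rose 6.35-fold (log2 difference 2.67 ± 0.18 SE, adjusted p 3.02e-09). Between Ter119 and CFUe the difference was 0.39 ± 0.18. Since Ter119 cells were sorted for CD71, comparisons of Tfrc with that fraction are a description only. On the myeloid side the arrays read 1.36, 1.25 and 1.34 in GMP and -1.85, -1.60 and -1.77 in Mac1Gr1. GMP stood above PreGM on every array by 0.93 ± 0.18, just under 2-fold, and with the slide as a block this difference was called (1.14). Tfrc fell 8.31-fold from GMP to Mac1Gr1 (adjusted p 6.07e-11), the lowest fraction.

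Tfr2 encodes the related transferrin receptor 2, a sensor of transferrin-bound iron that also associates with the erythropoietin receptor. Tfr2 was at 3.33, 3.15 and 3.37 in KLS, 4.70, 4.71 and 4.56 in PreMegE, 5.06, 5.21 and 5.12 in CFUe, and -0.99, -0.62 and -0.23 in Ter119. No 2 fractions that are neighbours in the order of their levels overlapped. The rise came a step earlier than that of Tfrc: 2.59-fold from KLS to PreMegE (1.37 ± 0.17, adjusted p 1.07e-05), with a further difference of 0.48 ± 0.17 to CFUe that stayed under 2-fold. Tfr2 then fell 53.6-fold from CFUe to Ter119 (-5.74 ± 0.17, adjusted p 2.7e-14). On the myeloid side it read 2.56, 2.62 and 3.08 in PreGM, 1.51, 1.26 and 1.16 in GMP, and -2.89, -2.76 and -2.59 in Mac1Gr1. It fell 2.72-fold from PreGM to GMP and 16.7-fold from GMP to Mac1Gr1 (adjusted p 1.27e-12).

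Steap3 encodes the endosomal ferrireductase of erythroid precursors. It was a dim probe throughout. Steap3 lay at -5.26, -4.91 and -4.47 in KLS (2 of 3 arrays well above background), -2.95, -2.73 and -3.09 in PreMegE, -1.66, -1.54 and -1.56 in CFUe, and -3.74, -3.80 and -3.83 in Ter119 (2 of 3). The 3 CFUe arrays were the highest of the 21 and the PreMegE arrays came next. It rose 3.88-fold from KLS to PreMegE (1.96 ± 0.21, adjusted p 1.82e-06) and 2.53-fold from PreMegE to CFUe, and fell 4.60-fold from CFUe to Ter119 (adjusted p 4.49e-08). With a normexp background correction, which shrinks differences of dim probes, these changes were 0.91, 0.97 and -0.51 and were no longer called. PreGM (-3.99, -4.34, -4.39) and GMP (-4.16, -4.02, -4.50) overlapped. None of the 3 Mac1Gr1 arrays was well above background (-5.45, -4.92, -4.61), so the level in GMP was at least 1.42-fold higher, and that in Ter119 at least 1.92-fold higher. These bounds set the brighter mean against the lowest signal well above background on each Mac1Gr1 array, or the signal of the probe itself where that was higher.

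Slc11a2 encodes DMT1, the ferrous iron transporter of endosomes. The arrays gave -1.16, -1.38 and -0.90 in KLS, 1.25, 1.30 and 1.21 in PreMegE, 2.12, 2.13 and 2.38 in CFUe, and 0.62, 0.91 and 1.26 in Ter119. Slc11a2 rose 5.27-fold from KLS to PreMegE (2.40 ± 0.17, adjusted p 1.69e-08). The further difference to CFUe, 0.96 ± 0.17, was just under 2-fold with no overlap, and between CFUe and Ter119 it fell 2.43-fold (adjusted p 3.44e-06). PreGM (-0.68, -0.84, -0.30) and GMP (-0.55, -0.54, -0.54) overlapped, and from GMP to Mac1Gr1 (-2.97, -2.82, -2.52) it fell 4.68-fold. A dimmer probe on the same transcript differed: it put Ter119 above CFUe by 0.81 ± 0.22 and gave 0.27 ± 0.22 for Mac1Gr1 against GMP. Another probe, assigned to another RefSeq transcript of the gene, gave the call of the brightest probe in 10 of 11 comparisons.

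Slc25a37 encodes mitoferrin 1, which supplies iron for haem synthesis in red cell precursors. The 3 Ter119 arrays read 9.32, 9.14 and 8.93. Every other array lay between 1.95 and 5.07: 2.82, 2.79 and 2.84 in KLS, 2.66, 2.52 and 2.46 in PreMegE, 2.07, 1.95 and 2.28 in CFUe, 2.70, 2.61 and 3.10 in PreGM, 3.04, 3.22 and 3.26 in GMP, and 5.07, 4.79 and 4.74 in Mac1Gr1. CFUe, the fraction with the highest Tfr2, Slc11a2 and Steap3, was thus the lowest for Slc25a37. From CFUe to Ter119 Slc25a37 rose 131-fold (7.03 ± 0.14, adjusted p 6.71e-16), and a dimmer probe gave 5.72 ± 0.16. The granulocytic list was also higher in Ter119 than in CFUe, and its part in this rise was not tested. Mac1Gr1 was 19.2-fold lower than Ter119 in Slc25a37 (adjusted p 2.64e-13). In Mac1Gr1 the level was 3.24-fold above GMP (1.69 ± 0.14, adjusted p 8.56e-09), where the dimmer probe gave 0.62, under 2-fold, and scaling to spike-in RNAs turned the sign (-0.34). CFUe lay 2.10-fold under GMP (adjusted p 7.14e-06), a call lost without CFUe replicate 2 (-0.996).

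Fth1 and Ftl1 encode the heavy and light chains of ferritin, which form the iron storage shell. Both genes have many processed copies in the genome, and whether their probes also bind such copies was not tested. Fth1 was at 7.67, 7.51 and 7.72 in KLS, 7.10, 7.25 and 6.99 in PreMegE, 8.24, 8.38 and 8.39 in CFUe, and 8.72, 8.90 and 8.83 in Ter119. On the myeloid side the values were 7.70, 7.73 and 7.55 in PreGM, 7.29, 7.32 and 7.14 in GMP, and 8.99, 8.999 and 9.13 in Mac1Gr1. Fth1 thus had its lowest means in PreMegE and GMP and its highest in the terminal fraction of each side. It rose 2.33-fold from PreMegE to CFUe (1.22 ± 0.10, adjusted p 4.44e-08; 0.92 with quantile scaling and 0.87 in the deposited series table, both under 2-fold). It was 3.46-fold higher in Mac1Gr1 than in GMP (1.79 ± 0.10, adjusted p 5.09e-11), where spike-in scaling turned the sign (-0.24).

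Ftl1 lay at 4.43, 4.50 and 4.62 in KLS, 3.99, 4.36 and 4.17 in PreMegE, 4.47, 4.71 and 4.53 in CFUe, and 5.29, 6.16 and 5.73 in Ter119. It lay at 4.38, 4.28 and 4.02 in PreGM, 4.92, 5.01 and 4.62 in GMP, and 5.66, 5.85 and 5.81 in Mac1Gr1. The terminal fractions overlapped with each other and with no other fraction. The one called change of Ftl1 in 11 comparisons was the 2.22-fold difference of Ter119 over CFUe (1.15 ± 0.18, adjusted p 1.69e-05). That call was lost without Ter119 replicate 2 (0.94) and with normexp (0.91), and spike-in scaling turned its sign (-0.23). Mac1Gr1 differed from GMP by 0.92 ± 0.18, with a sign that also turned (-1.11).

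Slc40a1 encodes ferroportin, the cellular iron exporter, abundant in macrophages that recycle red cells. Its levels had the widest span of the 10. The arrays read 3.08, 2.41 and 1.46 in KLS, -0.42, -0.60 and -0.30 in PreMegE, 2.40, 2.30 and 2.67 in CFUe, and 2.71, 2.33 and 2.47 in Ter119. On the myeloid side they read -3.94, -3.95 and -2.58 in PreGM, 0.56, 0.26 and 0.37 in GMP, and 4.69, 4.60 and 4.54 in Mac1Gr1. KLS, CFUe and Ter119 overlapped, and Mac1Gr1 stood above and PreGM below all others. Slc40a1 fell on leaving KLS on both sides, 6.74-fold to PreMegE (-2.75 ± 0.35, adjusted p 1.06e-05) and 55.9-fold to PreGM (-5.81 ± 0.35, adjusted p 1.03e-08). It rose 7.44-fold from PreMegE to CFUe (adjusted p 2.57e-06), 14.8-fold from PreGM to GMP (adjusted p 3.84e-07) and 18.5-fold from GMP to Mac1Gr1 (adjusted p 6.38e-09). Between Ter119 and CFUe the difference was 0.05 ± 0.35, and spike-in scaling gave -1.34.

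The summed macrophage list moved with Slc40a1 among the KLS arrays and between the fractions of the myeloid side, though not every gene of it did. The 3 KLS arrays held the macrophage list at 6.29, 5.47 and 4.81, in the order of their Slc40a1 levels. They held Hmox1, haem oxygenase 1, at 4.48, 3.68 and 3.09, Slc11a1, an iron and manganese transporter of phagosomes, at 0.82, -0.06 and -0.88, and Cd163, the haemoglobin scavenger receptor, in the same order. The array orders of the list and Slc40a1 also matched in Ter119 and GMP, but not in PreMegE, CFUe, PreGM or Mac1Gr1. In Mac1Gr1 the order was reversed: Slc40a1 read 4.69, 4.60 and 4.54, and the list 4.231, 4.456 and 4.46. Hmox1 (0.008, 3.627, 3.649) and Cd163 (-1.74, -1.01, -0.69) ranked with the list there. PreMegE (-0.44 to 0.39) and PreGM (0.04 to 0.26) held the macrophage list far lower, and the part of macrophage RNA in the falls from KLS was not tested. Leaving out each KLS array in turn gave -2.37 to -3.18 for PreMegE and -5.42 to -6.24 for PreGM, all called. The list stood at 2.92 to 3.14 in GMP and 4.23 to 4.46 in Mac1Gr1, so that its sum was higher at both steps at which Slc40a1 rose on that side. From PreGM to GMP Vcam1 went from -3.66 to 2.55, while the median over the list went only from -4.05 to -3.54. Hmox1 (-0.78 to -0.92) and Cd163 (-1.11 to -2.80) had lower means in GMP than in PreGM. The part of macrophage RNA in these rises of Slc40a1 was not tested. In CFUe the macrophage list was at its lowest (-1.61 to -0.88) while Slc40a1 was at 2.30 to 2.67 on all 3 arrays. In Ter119, where Slc40a1 overlapped CFUe, the macrophage list stood at 3.235 to 3.326, with 10 of its 11 genes well above background on all 3 arrays. The part of macrophage RNA in the Ter119 level of Slc40a1 was not tested. PreGM replicate 3, above the other 2 arrays in Slc40a1, was also the highest of the 3 in 9 of the 12 granulocytic genes (S100a8 at 3.07 against 0.11 and -0.23, Camp at -0.02 against -2.81 and -3.17). The summed macrophage list was highest on it as well (0.259 against 0.038 and 0.055), though C1qa, C1qb and Spic were lowest there. The part of granulocytic or macrophage RNA was not tested. Without PreGM replicate 3, the log2 difference was -6.26 for PreGM against KLS and 4.34 for GMP against PreGM.

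**Figure D2:**
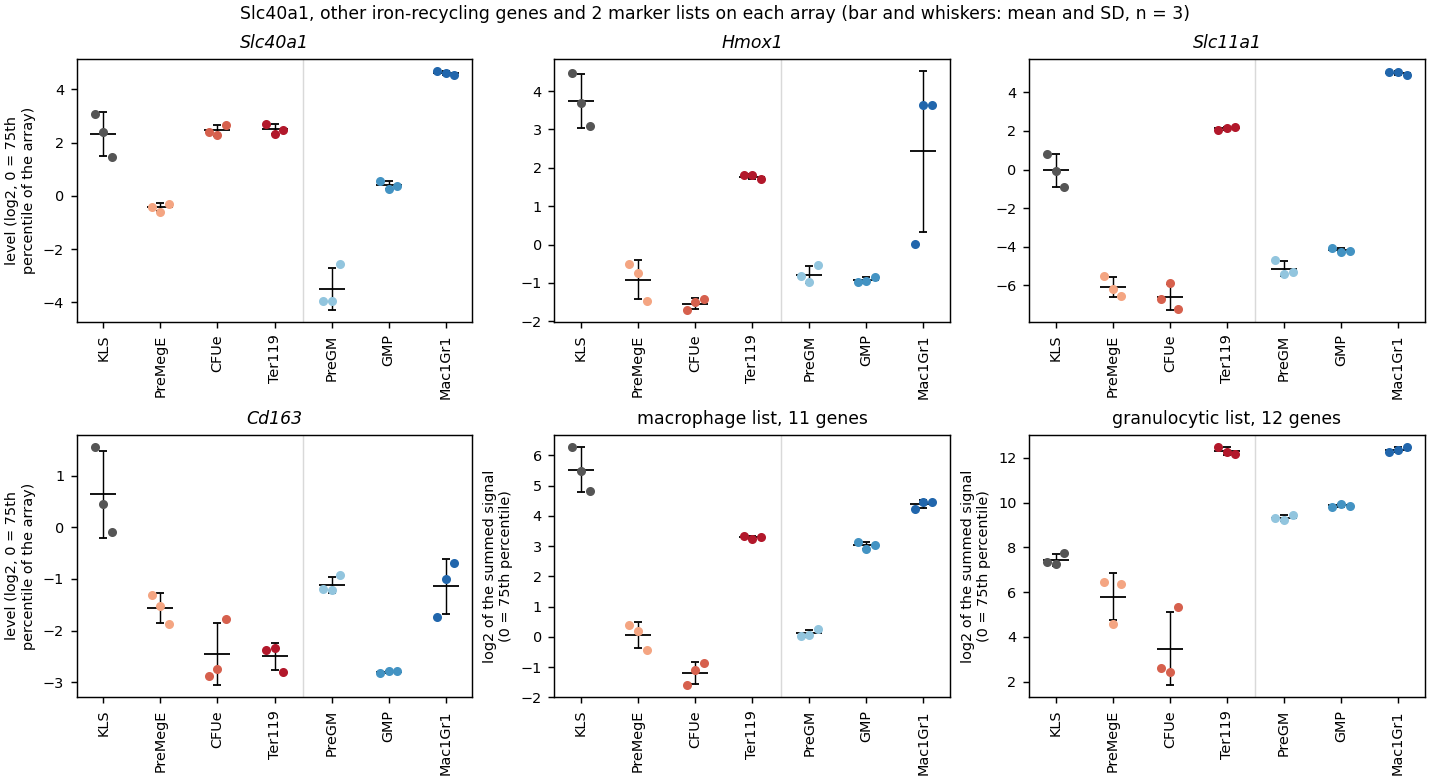
Log2 levels of Slc40a1, Hmox1, Slc11a1 and Cd163, and log2 of the summed signal of 11 macrophage and 12 granulocytic genes, on each array (points) by fraction, with mean and SD of 3 arrays. The 3 KLS arrays rank in the same order in Slc40a1, Hmox1, Slc11a1, Cd163 and the macrophage list, while in CFUe Slc40a1 is near 2.46 and the macrophage list is at its lowest. In Mac1Gr1 the arrays rank in Hmox1, Cd163 and the macrophage list in the reverse of their order in Slc40a1. Vertical scales differ between panels.

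Aco1 and Ireb2 encode iron regulatory proteins 1 and 2, which sense cytosolic iron. Aco1 lay at 1.32, 1.44 and 1.44 in KLS, 1.84, 1.99 and 1.96 in PreMegE, 2.97, 2.74 and 2.77 in CFUe, and -0.17, 0.05 and 0.11 in Ter119. It lay at 1.49, 1.38 and 1.68 in PreGM, 1.70, 1.73 and 1.55 in GMP, and -0.20, 0.01 and -0.08 in Mac1Gr1. CFUe was the highest fraction, the terminal fractions overlapped as the lowest, and the other 4 fractions lay between. From KLS to CFUe Aco1 rose 2.69-fold (1.43 ± 0.11, adjusted p 8.18e-09). It fell 7.10-fold from CFUe to Ter119 (-2.83 ± 0.11, adjusted p 5.08e-13) and 3.35-fold from GMP to Mac1Gr1 (-1.75 ± 0.11, adjusted p 2.14e-10). A dimmer probe on the same RefSeq transcript gave called changes in the opposite direction at both of these steps, 2.80 ± 0.42 and 2.13 ± 0.42, so the direction of Aco1 in the terminal fractions depends on the probe.

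Ireb2 lay between 0.40 and 1.49 on all 21 arrays. Its means ran from 0.48 ± 0.11 (SD, n = 3) in PreMegE to 1.37 ± 0.11 in Mac1Gr1, and it was called in none of 11 comparisons, with log2 differences from -0.71 to 0.75. The difference of 0.75 ± 0.12 between CFUe and PreMegE passed the adjusted p (5.91e-05) but not the 2-fold minimum. Of its 2 dimmer probes, 1 gave a called rise from GMP to Mac1Gr1 (1.56 ± 0.12), where the brightest gave 0.29, and the other gave the call of the brightest in all 11.

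**Figure D3:**
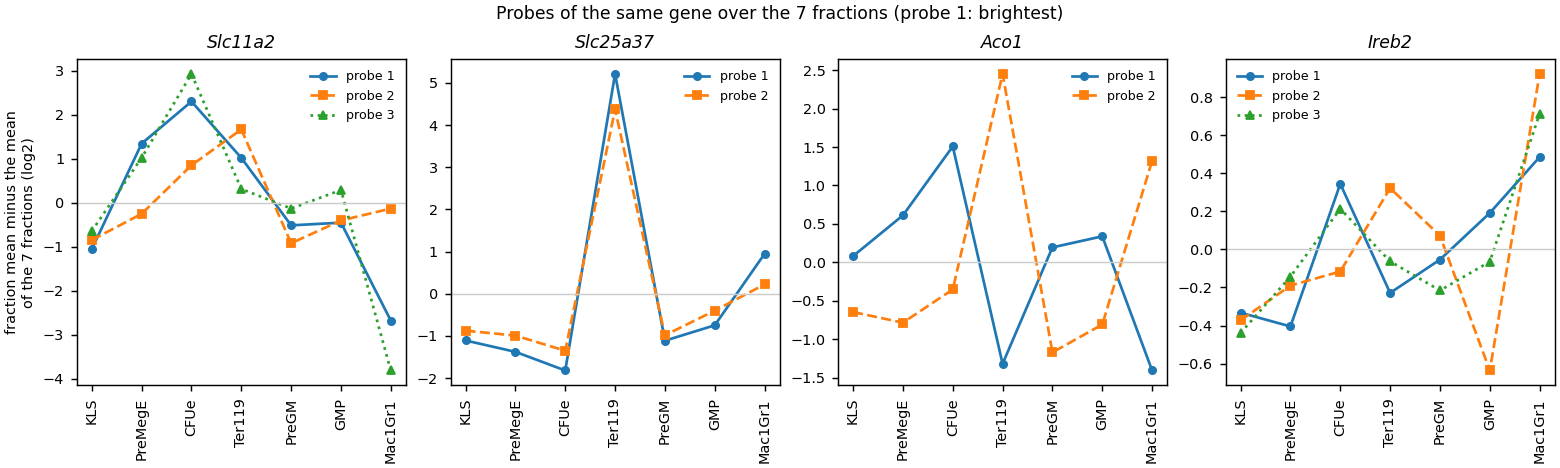
Mean of each fraction (horizontal axis) minus the mean of the 7 fractions (vertical axis, log2) for each probe of the 4 genes with several probes, without error bars. The probes of Slc25a37 share the peak in Ter119, whereas the probes of Aco1 move in opposite directions in Ter119 and Mac1Gr1, and those of Slc11a2 differ in Ter119 and Mac1Gr1.

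From KLS to PreMegE 4 of the 10 genes were called, beside 12.4% of all probes. Tfr2, Slc11a2 and Steap3 rose, where 3.55% of probes did, and Slc40a1 fell, where 8.86% did. The call of Tfr2 was lost with spike-in scaling (0.91) and that of Slc11a2 with its next brightest probe (0.60). From PreMegE to CFUe 4 were called, beside 24.7% (9.96% higher, 14.7% lower): Tfrc, Slc40a1, Fth1 and Steap3 rose and none fell. Spike-in scaling put Fth1 (0.71) and Steap3 (0.82) under 2-fold, with 2 called in all. Over both steps, CFUe against KLS, 5 were called, all higher (Tfrc, Tfr2, Slc11a2, Steap3 and Aco1), beside 17.2% of probes called higher, 19.1% lower and 36.3% either way. Spike-in scaling put Tfr2 (0.87) and Aco1 (0.45) under 2-fold, as the dimmer probe did for Aco1 (0.29). From CFUe to Ter119 6 were called, beside 57.2% (29.2% higher, 28% lower): Slc25a37 and Ftl1 were higher, and Tfr2, Slc11a2, Steap3 and Aco1 lower, with the exceptions given above for Ftl1 by scaling and for Aco1 and Slc11a2 by probe. The fall of Slc11a2 was just under 2-fold with quantile scaling (-0.93) and in the series table (-0.99).

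On the myeloid side, from KLS to PreGM 1 was called, Slc40a1, which fell, beside 8.64% of all probes (2.11% higher, 6.53% lower). From PreGM to GMP 2 were called, beside 10.4% (4.01% higher, 6.36% lower): Slc40a1 rose and Tfr2 fell, though not by 2-fold with spike-in scaling (-0.43), under which 8 of the 10 genes were called at this step, all higher. GMP against KLS gave 3, beside 21.7% (8% higher, 13.7% lower): Tfrc was 2.10-fold higher (1.07 ± 0.18; 0.98 with quantile scaling), Tfr2 3.93-fold lower and Slc40a1 3.78-fold lower. From GMP to Mac1Gr1 7 were called, beside 56.7% (29.1% higher, 27.6% lower): Slc40a1, Fth1 and Slc25a37 were higher and Tfrc, Tfr2, Slc11a2 and Aco1 lower, of which Fth1 and Slc25a37 turned under spike-in scaling. Comparisons that share the KLS arrays are not independent of each other.

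Between the sides at matched stages, PreMegE exceeded PreGM in 4 genes, beside 12% of probes called (5.81% higher, 6.23% lower): Tfr2 (3.74-fold), Slc11a2 (3.63-fold), Slc40a1 (8.29-fold) and Steap3 (2.49-fold). Steap3 was under 2-fold with normexp (0.51) and Slc11a2 with its next brightest probe (0.67). CFUe and GMP differed in 8, beside 26.3% (12.1% higher, 14.2% lower). CFUe was higher in Tfr2 (14.1-fold), Slc11a2 (6.74-fold), Steap3 (6.23-fold), Slc40a1 (4.17-fold), Tfrc (3.49-fold), Aco1 (2.25-fold) and Fth1 (2.13-fold), and lower in Slc25a37. The directions of Aco1 and Fth1 turned under spike-in scaling (-0.21 and -0.29), and quantile scaling put both under 2-fold. The calls of Tfrc (0.43) and Slc40a1 (0.69) were lost with spike-in scaling, and those of Aco1 (0.46) and Slc25a37 (-0.95) with the next brightest probe. Ter119 and Mac1Gr1 differed in 6, beside 41.9% (22% higher, 19.9% lower): Ter119 was higher in Tfrc (with the sort on CD71), Slc25a37, Slc11a2 (13.0-fold), Tfr2 (4.39-fold) and Steap3, and lower in Slc40a1 (4.30-fold). The call of Steap3 was lost without Mac1Gr1 replicate 1 (0.975), and with quantile, spike-in or normexp scaling or the series table (0.48 to 0.75).

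The difference between the sides was also tested directly, as the change at an erythroid step minus the change at the matching myeloid step. At the second step, CFUe minus PreMegE against GMP minus PreGM, 4 genes were called, beside 20.2% of probes (8.38% higher, 11.8% lower): Tfr2 (1.92 ± 0.24, adjusted p 1.24e-05), Tfrc (1.73 ± 0.25), Fth1 (1.63 ± 0.14) and Steap3 (1.32 ± 0.30), all toward the erythroid side. Under spike-in scaling these were 0.39, 0.20, 0.10 and -0.21 and none of the 4 was called; the median of all probes there was -1.39. At the third step, Ter119 minus CFUe against Mac1Gr1 minus GMP, 7 were called, beside 39.9% (20.9% higher, 19% lower). Slc25a37 (5.34 ± 0.20, adjusted p 4.45e-12) and Tfrc (3.45 ± 0.25, with the sort on CD71) moved toward the erythroid side. Slc40a1 (-4.17 ± 0.49, adjusted p 1.99e-06), Tfr2 (-1.68 ± 0.24), Steap3 (-1.44 ± 0.30), Fth1 (-1.31 ± 0.14) and Aco1 (-1.08 ± 0.16) moved toward the myeloid side, of which Tfr2 and Aco1 fell at the last step on both sides. For Steap3, which was not well above background in Mac1Gr1, the change on the myeloid side is known only as a bound, so this difference is not settled. The dimmer probe gave 0.68 for Aco1, and the call of its brightest probe was lost without Ter119 replicate 1 (-0.999) and with quantile scaling (-0.92). Spike-in scaling ended the calls of Tfr2 (-1.03), Steap3 (-0.78), Fth1 (-0.66) and Aco1 (-0.43). Ireb2 was not called by its brightest probe (-0.87 ± 0.17), but both of its dimmer probes were called (-1.12 ± 0.18 and -1.05 ± 0.33).

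**Figure D4:**
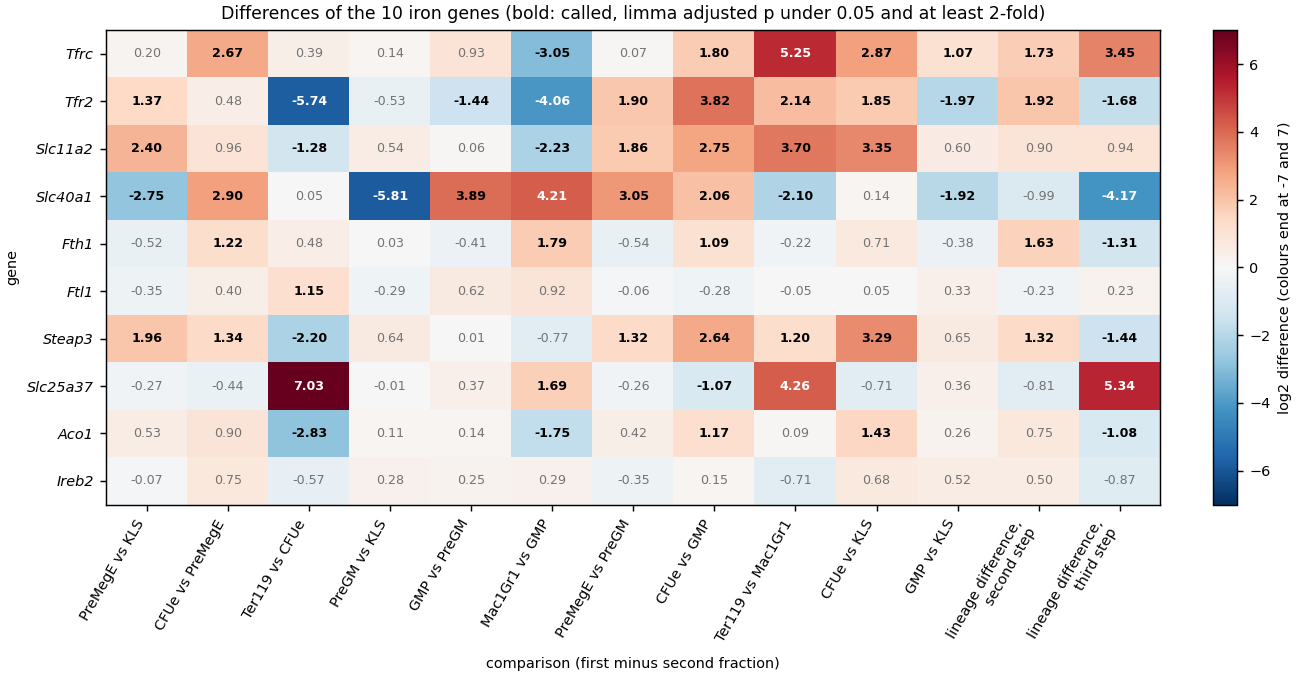
Log2 differences of the 10 iron genes (rows) in 11 comparisons and 2 differences between the sides (columns, first minus second fraction), with called changes in bold and colour giving sign and size. Slc25a37 in Ter119 against CFUe (7.03), Slc40a1 in PreGM against KLS (-5.81) and Tfr2 in Ter119 against CFUe (-5.74) are the largest differences between neighbouring fractions, and Ireb2 has no called change by its brightest probe, the one shown.

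A list of 49 other iron genes was sorted by role, and 42 passed the filter on dim probes. From KLS to CFUe 14 of the 42 were called higher and 9 lower, beside 36.3% of all probes either way, with a median difference of 0.72 beside 0.23 over all probes. Among the 12 genes of mitochondrial iron and iron-sulphur cluster assembly 7 were higher in CFUe than in KLS and 0 lower, beside 17.2% and 19.1% of all probes. Glrx5, a glutaredoxin of cluster assembly, rose by 2.64 ± 0.16, Lyrm4, a partner of the cysteine desulphurase, by 2.23 ± 0.15, and Abcb10, a mitochondrial transporter that binds mitoferrin 1, by 2.22 ± 0.17. From CFUe to Ter119 Abcb10 rose by a further 2.06 ± 0.17 and Isca1, a cluster scaffold, by 3.01 ± 0.18, while Lyrm4 fell by 3.19. Of the 12, 4 rose and 4 fell at this step, beside 29.2% and 28% of all probes. From GMP to Mac1Gr1 7 of the 12 fell, among them Abcb10 (-3.47), Glrx5 (-2.76) and Lyrm4 (-2.34), and 2 rose, beside 27.6% of all probes lower and 29.1% higher.

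Haem export and breakdown genes divided as well. Flvcr1, the haem exporter, was at 1.65 in CFUe and 1.69 in Mac1Gr1, above all other fractions, and rose by 1.63 ± 0.11 from PreMegE to CFUe. Blvrb, a biliverdin reductase abundant in red cells, rose by 1.98 ± 0.28 to PreMegE and by 2.87 ± 0.28 to CFUe, and stayed at 6.10 in Ter119. Hmox1 fell from KLS by 4.66 ± 0.66 to PreMegE and by 4.53 ± 0.66 to PreGM, with the macrophage list. Ncoa4, the receptor that sends ferritin for breakdown, was at its lowest in CFUe (1.40) and rose by 4.27 ± 0.12 to Ter119 (5.67), the step at which Fth1 differed by 0.48. Slc39a8, a zinc transporter that also carries iron, rose by 3.25 ± 0.15 to CFUe and fell by 4.77 to Ter119.

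Among sensing genes, Fbxl5, which targets iron regulatory protein 2 for degradation, rose in both terminal fractions, by 2.29 ± 0.21 in Ter119 and 3.95 ± 0.21 in Mac1Gr1. Erfe, the erythroid hormone that lowers hepcidin, was well above background on all 3 arrays in CFUe alone. Slc11a1, Lcn2 and Ltf, genes of granulocytes and phagocytes, rose in Ter119 as in Mac1Gr1 (Lcn2 to 7.04 and 8.51, Ltf to 9.07 and 9.75). The summed granulocytic level of Ter119 overlapped that of Mac1Gr1, though 8 of the 12 genes had a lower mean in Ter119 (median over the list 7.39 against 8.68). The part of granulocytic RNA in the Ter119 levels of iron genes was not tested.

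**Figure D5:**
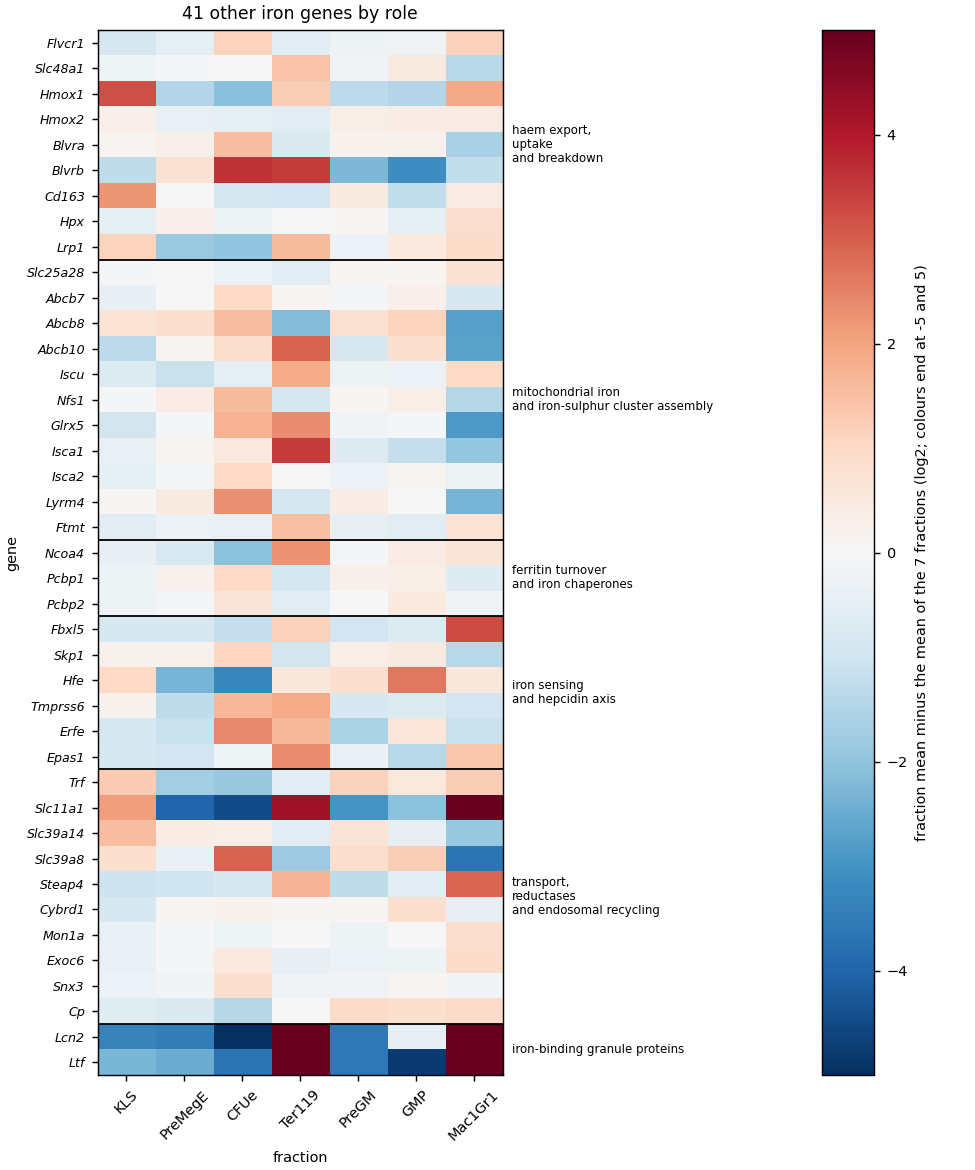
Mean level of each fraction (columns) minus the mean of the 7 fractions (colour, log2) for 41 of the 42 other iron genes that passed the filter, grouped by role, without error bars. Blvrb and Glrx5 are highest in CFUe and Ter119, and Slc11a1, Lcn2 and Ltf are high in both Ter119 and Mac1Gr1.

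Over the 21 arrays, which cluster by fraction, the genes whose levels ran most like each member were taken from 14314 others, by Pearson's r and as a description only. They were Metap2 (0.982) for Tfrc, Cep41 (0.987) and Klhl22 (0.987) for Tfr2, Aplf (0.971) for Slc11a2, Acss1 (0.949) for Steap3 and Bcl2l1 (0.981) for Slc25a37. For the rest they were Arl2bp (0.951) for Fth1, Mppe1 (0.957) for Ftl1, Thumpd3 (0.996) for Aco1 and Trub2 (0.945) for Ireb2. Slc40a1 had no close match, with Igf2r at 0.89. Within the 10 genes, Tfr2 ran most like Aco1 (0.92), and Slc11a2 like Steap3 (0.898). Each gene is taken by its brightest probe here, and the dimmer Aco1 probe moved the other way in the terminal fractions.

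Windows from 250 bases before to 50 after a transcript start were taken from RefSeq (GRCm38.p6) for 7 of the 10 genes, 14 windows in all. Slc11a2, Slc40a1 and Slc25a37 were not matched to a window. The letters AGATAA, which factors of the GATA family recognise, were searched on both strands and occurred in 1 member window, that of Steap3, and in 11.2% of all windows. CACGTG, an E-box, occurred in 0 member windows and in 7.15% of all. CCNCNCCC, the core of Krüppel-like factor motifs, occurred in 12 of the 14 member windows and in 49.5% of all windows, and its matches may overlap each other. The windows of Tfrc overlap and share some of these matches. The loop letters of an iron-responsive element were searched on the sense strand alone and occurred in 2 member windows, both of Tfr2, and in 10.4% of all. These 2 windows overlap, and the match is the same site in each. Such elements act in the message, of which a window holds only the 50 bases after its start. The search therefore cannot tell which of the genes carry an element. The 120 bases before the outermost start of Tfrc, Tfr2 and Steap3, the 3 of the 7 genes called higher in CFUe than in KLS for which uptake or reduction of transferrin iron is the known role, are shown with matches to AGATAA or CCNCNCCC on either strand in capitals. They lie at chr16:32608776-32608895 on the plus strand, chr5:137569720-137569839 on the plus strand and chr1:120271081-120271200 on the minus strand.
Tfrc: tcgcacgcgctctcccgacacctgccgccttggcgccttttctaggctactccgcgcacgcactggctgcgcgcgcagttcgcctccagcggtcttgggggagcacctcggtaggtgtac
Tfr2: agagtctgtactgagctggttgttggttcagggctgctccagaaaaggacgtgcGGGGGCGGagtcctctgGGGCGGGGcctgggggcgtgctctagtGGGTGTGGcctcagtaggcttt
Steap3: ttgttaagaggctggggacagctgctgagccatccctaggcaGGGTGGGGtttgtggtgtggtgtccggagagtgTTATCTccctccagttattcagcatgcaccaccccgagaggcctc
The Tfrc window held CCNCNCCC outside the stretch shown, at positions -158, -156, -151, 39 and 41 from the start, so a stretch without capitals is not a window without matches. A match is a description of the letters and no evidence of binding.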

How the data were processed

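Total RNA of each fraction was labelled with Cy3 and hybridised, with spike-in RNAs, to 1-colour Agilent arrays. The deposited scanner files hold background-corrected intensities that the authors obtained with Feature Extraction 10.7.1.1. The deposited series table, also of 21 arrays, holds the authors' normalized log2 values, used as an alternative. Levels were log2 of the intensity minus the 75th percentile of the array over 43379 non-control spots. Outlier spots (80 to 283 per array) were left out, no spot was saturated, and spots of a probe were averaged (41174 probes). A probe was tested if some fraction had it well above background on each of its 3 arrays (29532 probes). RefSeq accessions gave 26690 probes (64.8%) a symbol through a GRCm38.p6 table. The array annotation names mm9, so no probe coordinates are given.

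A single linear model with a mean per fraction was fitted to the 21 arrays in limma 3.58.1 under R 4.3.3, with moderated two-sided tests (median residual SD 0.262, 14 residual degrees of freedom). The adjusted p values are limma's, by the Benjamini-Hochberg method across those probes. On simulated data for CFUe against KLS, the fit called 179 of 200 probes changed by 2 on the log2 scale (89.5%) and 5 unchanged ones. The members, lists and tests were chosen with earlier results of these data known. All 10 members are named; other iron genes come from a list by role, of which all 49 had a probe; 7 were too dim to test, and values of 1 more are not reported here. Alternatives were quantile, spike-in (7 of 10 sequences) and normexp scaling (offset 50, on median pixel intensities), no filter, no minimum fold, 1 probe per gene, the next brightest probe, slide or replicate number as a block, the compared fractions alone, the series table, and leaving out each array. Arrays were scanned on 1 day. Figures used Python, pandas and matplotlib.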

Additional observations from a re-analysis of the deposited data

Results flagged for a closer look

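The change at an erythroid step differed from the change at the matching myeloid step for 4 genes at the second step and 7 at the third, by limma's test of the difference itself. At the second step the log2 difference between the steps was 1.73 for Tfrc, 1.92 for Tfr2, 1.63 for Fth1 and 1.32 for Steap3. At the third step it was 3.45 for Tfrc, -1.68 for Tfr2, -4.17 for Slc40a1, -1.31 for Fth1, -1.44 for Steap3, 5.34 for Slc25a37 and -1.08 for Aco1. Tfr2 and Fth1 thus changed sign between the steps. Under spike-in scaling none of the 4 second-step differences was called (Tfr2 0.39, Tfrc 0.20, Fth1 0.10, Steap3 -0.21). At the third step it ended the calls of Tfr2 (-1.03), Fth1 (-0.66), Steap3 (-0.78) and Aco1 (-0.43). The dimmer Aco1 probe gave the other sign at the third step (0.68, not called). The third-step value of Steap3 is not settled, since its probe was not well above background on any Mac1Gr1 array. That of Tfrc is a description only, since Ter119 cells were sorted for CD71. Beside these, 20.2% of all probes were called at the second step and 39.9% at the third.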

How the results depend on the processing

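Spike-in scaling had the widest effect: it moved the median of all probes as low as -1.86, in Mac1Gr1 against GMP, and as high as 0.995, in GMP against PreGM, from between -0.02 and 0.23 over the 11 comparisons. With it, 2 genes were called for CFUe vs PreMegE, 2 for PreGM vs KLS, 8 for GMP vs PreGM, 5 for GMP vs KLS and 4 for the difference at the third step. It turned the sign for Ter119 vs CFUe of Slc40a1 (-1.34) and Ftl1 (-0.23), for Mac1Gr1 vs GMP of Fth1 (-0.24), Ftl1 (-1.11), Slc25a37 (-0.34) and Ireb2 (-1.74), for CFUe vs GMP of Fth1 (-0.29), Aco1 (-0.21) and Ireb2 (-1.22), and for the second-step difference of Steap3 (-0.21) and Ireb2 (-1.03). The cause was not tested. The next brightest probe turned Slc11a2 (0.81) and Aco1 (2.80) in Ter119 vs CFUe, Slc11a2 (0.27) and Aco1 (2.13) in Mac1Gr1 vs GMP, and Aco1 (0.68) at the third step. Without the 2-fold minimum, which by construction admits smaller changes, 9 genes were called for CFUe vs PreMegE, 4 for PreGM vs KLS, 5 for GMP vs PreGM, 7 for PreMegE vs PreGM, 8 each for CFUe and for GMP against KLS, and 8 for the difference at the second step.

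Leaving out each array in turn gave 4 to 5 calls at the second-step difference, 5 to 6 for Ter119 vs CFUe, 7 to 8 for CFUe vs GMP, 7 to 8 at the third step, 5 to 6 for Ter119 vs Mac1Gr1 and 7 to 8 for Mac1Gr1 vs GMP, and the main count in the other comparisons. With 1 probe per gene, no filter or the compared fractions alone, all 130 calls and non-calls of the 10 genes stood. With the replicate number as a block they also all stood (4 genes called for PreMegE vs KLS, for example). Numbers did not pair the samples: of 63 same-numbered pairs of arrays, 21 had deviations correlated above 0.1 (-0.43 to 0.369). On 6 comparisons with both fractions on 1 slide, 28 of 28 within-slide differences had the sign of the called change. This had to be so, since the compared fractions overlapped in no called change, and it does not test an effect of the slide. Dim probes such as Steap3 are the least certain.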
